A study of Homo sapiens with 24 samples.

Results

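The 10 genes described here encode the subunits of the hypoxia-inducible factor (HIF) and the proteins that pass the oxygen signal to it. They were taken by name from the 60623 genes of the count table: HIF1A, EPAS1, ARNT, ARNT2, EGLN1, EGLN2, EGLN3, HIF1AN, VHL and SIAH2. All 10 passed the minimum of 10 counts summed over the libraries, as did 24873 genes in all, and were tested. RNA was sequenced from ARPE-19, an established human cell line derived from the retinal pigment epithelium (RPE). The 4 kinds of cells were wild type (WT), a vector control (VC) made by retroviral transduction, cells overexpressing epithelial membrane protein 2 (EMP2) from a retroviral construct (OE), and cells in which EMP2 was knocked down by short hairpin RNA (KD). Each was kept in normoxia, or moved for 4 h to a chamber with 0.5% oxygen after culture in normoxia (hypoxia), with 3 libraries per group and 24 in all. The KD line is not named in the labels and a short hairpin control is not among the samples. The labels also name replicates 1, 2 and 3 as sets, without saying what a set shared. The OE libraries of replicate 3 are named OE1 and the others OE2, and whether OE1 and OE2 are separate lines is not stated. EMP2 level and line cannot be told apart.

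HIF is a dimer of an oxygen-labile α subunit (HIF1α from HIF1A, HIF2α from EPAS1) and a β subunit that is present at any oxygen level (ARNT or ARNT2). When oxygen is available, the prolyl hydroxylases encoded by EGLN1, EGLN2 and EGLN3 hydroxylate the α subunit, the VHL protein binds the hydroxylated form, and a ubiquitin ligase built around VHL marks it for degradation. HIF1AN encodes an asparaginyl hydroxylase that keeps HIF from binding its coactivators, and SIAH2 encodes a ubiquitin ligase that degrades prolyl hydroxylases when oxygen is low. In the RPE, HIF is known for driving angiogenic genes such as VEGFA. These steps act on proteins and were not measured here. The values below are mRNA levels.

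HIF binds DNA at the letters ACGTG or GCGTG, and EGLN1 and EGLN3 are known as targets of HIF. The 250 bases before the transcription start were read from RefSeq (build GRCh38.p14), which gave a promoter for 8 of the 10 genes. The letters ACGTG were found on either strand before EGLN1, SIAH2 and EGLN2, and in 18.5% of all 35116 promoters. GCGTG was found before EPAS1 and the first RefSeq start of HIF1A, and in 32.2% of all promoters. The second RefSeq starts of HIF1A and EGLN2 had neither set of letters before them, and the shares count each start. Neither was found before ARNT, HIF1AN or EGLN3. The stretches of 30 bases that hold the ACGTG matches, in capitals on either strand, are shown with the last 30 bases before EGLN3, the gene with the widest range of levels.
EGLN1, chr1:231422288-231422317, minus strand: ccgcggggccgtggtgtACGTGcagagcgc
SIAH2, chr3:150763182-150763211, minus strand: ccgcaCACGTGtccaggcgtCACGTccgcg
EGLN2, chr19:40799130-40799159, plus strand: gcggggcgcggtCACGTGcccaccgggcga
EGLN3, chr14:33951075-33951104, minus strand: taagggccggacctcagcgtctcccggagt
The match before EGLN1 starts 13 bases before its transcription start. SIAH2 holds 3 matches, of which those 37 and 36 bases before the start overlap in the letters CACGTG, read on both strands, and the other lies 22 bases before it. The matches of EGLN2, 49 and 48 bases before the first of its RefSeq starts, overlap in the same way, and lie inside the span that GENCODE gives the gene. The SIAH2 and EGLN3 stretches lie within exons of other transcripts of these genes in GENCODE. A match is a description of the letters and not of binding.

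The libraries held 10796813 to 19779450 gene counts, with a median of 15992615. Levels are given as counts scaled to library size (CPM), and a gene with 0 counts could have up to 3 counts, or 0.15 to 0.252 CPM. Gene counts were 64.9% of the uniquely mapped reads in OE hypoxia replicate 1 and 90.0% to 91.5% in the other libraries, so results for OE cells in hypoxia are also given without this library. EMP2 lay between 478 and 625 CPM in OE cells, 37.8 and 55.6 CPM in WT cells, 32.7 and 52.0 CPM in VC cells, and 7.53 and 12.8 CPM in KD cells. The RPE markers did not stand at the same level in the lines. Summed over 14 markers they came to 5204 to 5696 CPM in WT, 1582 to 1929 in VC, 3054 to 3890 in OE and 3496 to 4441 in KD cells, and RPE65, a defining marker, was at 0 to 1.51 CPM in all libraries. EFEMP1 was the largest term of this sum in every library, at 737 to 4610 CPM, and differed by -2.50 (log2) between VC and WT cells in normoxia. Of the 14 markers, 3 were higher and 9 lower in VC than in WT cells in normoxia, and 3 and 8 in hypoxia. These comparisons called 35.8% and 39.9% of all genes. Summed over 13 markers of endothelium, blood and fibroblasts, levels were 4.52 to 9.41 CPM in WT, 3.19 to 6.72 in VC, 1.49 to 3.25 in OE and 6.6 to 13.1 in KD cells. The part of these marker differences in the differences between lines below was not tested. In bulk RNA, fewer cells of a type and less RNA per cell cannot be told apart.

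HIF1A and ARNT2 fell in hypoxia in all 4 lines, EPAS1 in all but VC and HIF1AN rose in all but OE cells. At an adjusted p below 0.01 in edgeR's quasi-likelihood test, 3 of the 10 genes were higher and 4 lower in hypoxia in WT cells, where 21.1% of all tested genes were called. The counts were 3 higher and 2 lower in VC cells (21.0% of all genes called), 0 higher and 3 lower in OE cells (13.9%), and 3 higher and 3 lower in KD cells (19.1%). Of the members higher in hypoxia in OE cells, 1 had an unadjusted p below 0.05 and DESeq2 called 0. The median log2 fold change of the 10 genes was -0.03 in WT, 0.04 in VC, -0.04 in OE and 0.36 in KD cells, beside medians over all tested genes of 0.0, -0.01, 0.003 and 0.0. In normoxia, 2 members were higher and 2 lower in OE than in WT cells (19.7% of all genes called), 0 higher and 4 lower in KD than in WT cells (16.3%), 2 higher and 2 lower in VC than in WT cells (35.8%), and 2 higher and 3 lower in OE than in VC cells (33.5%). In hypoxia, the counts were 2 and 3 for OE against WT (26.6%), 0 and 3 for KD against WT (18.2%), 3 and 4 for VC against WT (39.9%), and 2 and 3 for OE against VC (38.2%). For the 0 members higher in KD than in WT cells, the counts at an unadjusted p below 0.05 were 0 in normoxia and 2 in hypoxia, and DESeq2 called 0 in both. The counts of members for OE cells in hypoxia, and against WT and VC cells there, were the same when OE hypoxia replicate 1 was left out. The comparisons with WT share the WT libraries and those with VC share the VC libraries. VC cells differed from WT cells in more genes than OE or KD cells did, and in as many or more of the 10 members.

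**Figure D1:**
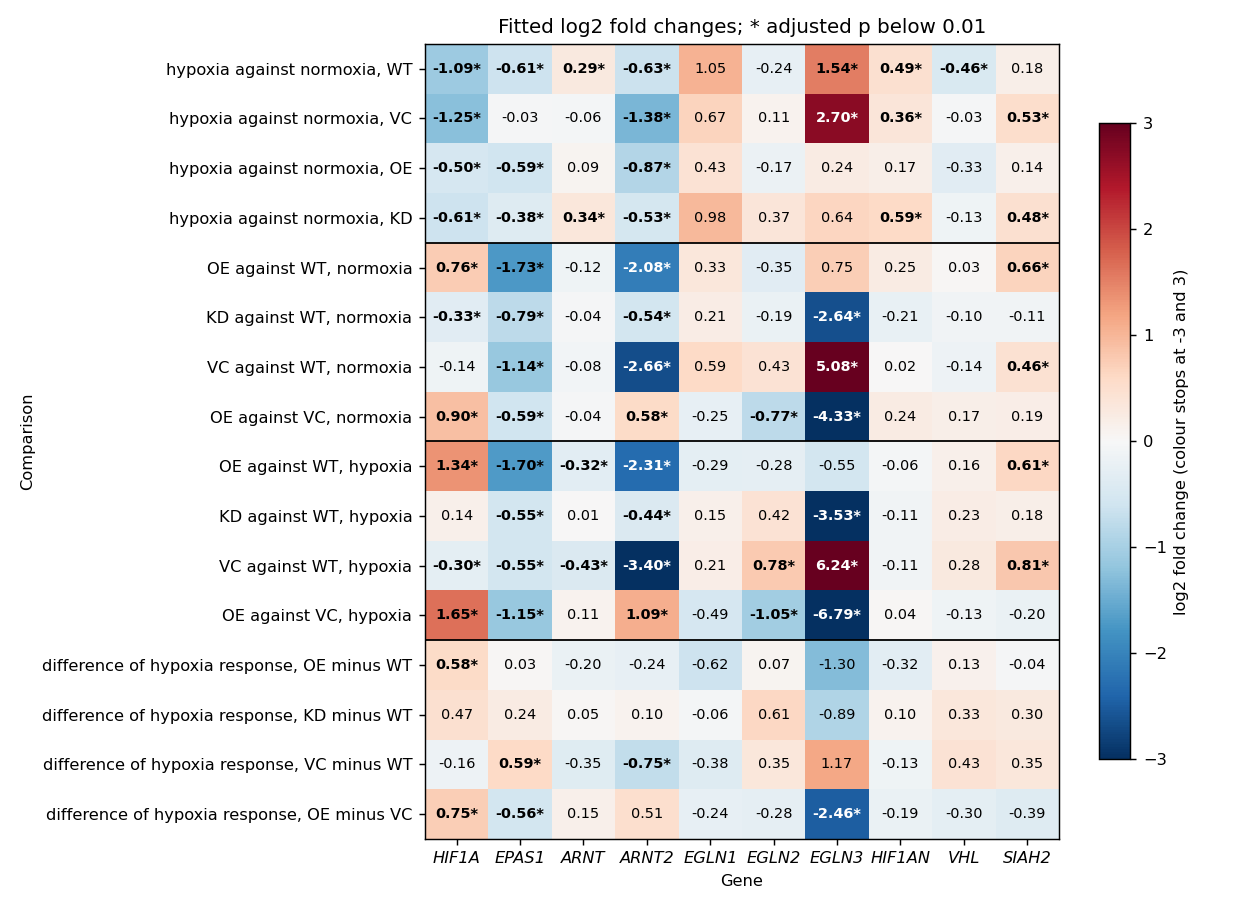
Fitted log2 fold changes of the 10 genes (columns) in the 16 comparisons (rows), as colour and number, with an asterisk where the adjusted p was below 0.01. HIF1A and ARNT2 fell in hypoxia in all 4 lines, while the EGLN3 column holds the widest range, from -6.79 to 6.24.

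HIF1A (ENSG00000100644) lies on the plus strand of chromosome 14, chr14:61695513-61748259 in GRCh38, and its canonical transcript has 15 exons and 3946 bases. HIF1A mRNA fell in hypoxia in all 4 lines and was highest in OE cells at both oxygen levels. In WT cells the 3 libraries held 606.6, 586.5 and 564.5 CPM in normoxia and 280.7, 257.4 and 289.3 CPM in hypoxia. VC cells held 506.6, 548.2 and 540.2 CPM in normoxia and 220.6, 216.7 and 233.3 CPM in hypoxia. OE cells held 978.6, 964.0 and 1034 CPM in normoxia and 682.5, 608.9 and 809.2 CPM in hypoxia. No library in hypoxia reached the lowest normoxic library of its line. KD cells held 488.3, 466.6 and 441.5 CPM in normoxia and 307.2, 299.3 and 307.0 CPM in hypoxia, which also did not overlap. Ordered by their means, the 8 groups of HIF1A values were separate from each other at all 7 steps, from 992.2 ± 36.86 CPM (SD, n = 3) in OE normoxia down to 223.5 ± 8.669 CPM (SD, n = 3) in VC hypoxia. The other members were separate at between 0 (EGLN1) and 6 (ARNT2) of 7 steps. The share of all genes with as many separate steps was not counted. Even in hypoxia the lowest OE library, at 608.9 CPM, was above the highest WT library in normoxia, at 606.6 CPM, by less than the spread between replicates.

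The fall of HIF1A in hypoxia was 2.12-fold in WT cells (log2 fold change -1.09 ± 0.08 SE, adjusted p = 2.94e-12) and 2.38-fold in VC cells (-1.25 ± 0.08 SE, adjusted p = 2.23e-13). It was 1.42-fold in OE cells (-0.50 ± 0.08 SE, adjusted p = 1.26e-05) and 1.53-fold in KD cells (-0.61 ± 0.08 SE, adjusted p = 2.97e-07). The response of OE cells was thus weaker than that of WT cells by 0.58 ± 0.11 (SE) on the log2 scale, with a 95% interval of 0.36 to 0.81 and an adjusted p of 0.000403, and weaker than that of VC cells by 0.75 ± 0.11 (SE, adjusted p = 1.81e-05). Of all tested genes, 6.18% and 5.13% were called in these tests of the difference. KD cells differed from WT cells in the same direction, by 0.47 ± 0.11 (SE), which missed the threshold (adjusted p = 0.0146), and 0 members were called in that test, in which 0.985% of all genes were. At an unadjusted p below 0.05 it counted 4 members, all with the higher response in KD cells, and DESeq2 called 1 of them, HIF1A (adjusted p = 0.00203, in a range of 0.000107 to 0.102 over 19 alternatives). With OE hypoxia replicate 1 left out, the change in OE cells was -0.48 and the differences were 0.60 from WT and 0.75 from VC cells, all called. When only the libraries of a comparison were fitted, the OE change (-0.47, adjusted p = 0.038) and its difference from WT cells (0.59, adjusted p = 0.0112) missed the threshold. The adjusted p lay between 2.33e-08 and 0.038 over 13 alternatives for the first and between 1.73e-06 and 0.0112 over 19 for the second.

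Between lines, HIF1A was 1.69-fold higher in OE than in WT cells in normoxia (0.76 ± 0.08 SE, adjusted p = 2.85e-09) and 2.54-fold higher in hypoxia (1.34 ± 0.08 SE, adjusted p = 9.91e-15). Against VC cells the excess was 1.87-fold and 3.13-fold (adjusted p = 4.36e-11 and 4.35e-17). VC cells were 1.23-fold lower than WT cells in hypoxia (-0.30 ± 0.08 SE, adjusted p = 0.00164), a call that was lost without VC hypoxia replicate 2 (-0.29, adjusted p = 0.0105) or WT hypoxia replicate 3 (-0.27, adjusted p = 0.0133), the highest of the 13 alternatives, which began at 2.38e-05. In normoxia VC and WT cells did not pass the test, with a 95% interval of -0.30 to 0.02. HIF1A was 1.26-fold lower in KD than in WT cells in normoxia (-0.33 ± 0.08 SE, adjusted p = 0.00151). This call was lost without any of WT replicates 1, 2 or 3 (-0.27, -0.29 and -0.31) and without KD replicates 2 or 3 (-0.29 and -0.26), with adjusted p values up to 0.0418 and down to 8.41e-05 over 13 alternatives. In hypoxia KD and WT cells did not pass the test (0.14 ± 0.08 SE, adjusted p = 0.211). The KD mean thus stood below the WT mean in normoxia and above it in hypoxia, where the difference was not called.

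EPAS1 (ENSG00000116016), on the plus strand at chr2:46293667-46386697 with 16 exons in its canonical transcript, was the α subunit that was lowest in OE cells. WT cells held 1043, 1089 and 1075 CPM in normoxia and 761.5, 649.5 and 686.1 CPM in hypoxia. OE cells held 334.1, 317.9 and 318.0 CPM in normoxia and 169.7, 221.6 and 253.4 CPM in hypoxia. The 6 OE libraries all lay below every library of the other lines. VC cells held 504.6, 462.1 and 490.8 CPM in normoxia and 463.1, 482.2 and 485.0 CPM in hypoxia, which overlapped throughout. KD cells held 637.5, 595.7 and 623.0 CPM in normoxia and 488.7, 479.6 and 460.8 CPM in hypoxia, which did not overlap.

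EPAS1 fell in hypoxia 1.53-fold in WT cells (-0.61 ± 0.09 SE, adjusted p = 1.92e-06), 1.5-fold in OE cells (-0.59 ± 0.09 SE, adjusted p = 1.06e-05) and 1.3-fold in KD cells (-0.38 ± 0.09 SE, adjusted p = 0.00141). In VC cells the change was -0.03, with a 95% interval of -0.21 to 0.15. The response of VC cells differed from that of WT cells by 0.59 ± 0.13 (SE, adjusted p = 0.00128, 8.02% of all genes called) and that of OE cells from VC cells by -0.56 ± 0.13 (SE, adjusted p = 0.00317). Without OE hypoxia replicate 1 the OE change was -0.44 and the OE difference from VC cells -0.44, both called. That last difference missed the threshold without VC normoxia replicate 2 (-0.52, adjusted p = 0.0117) and when fitted on its own libraries (-0.55, adjusted p = 0.0301), within a range of 4.5e-05 to 0.0301 over 19 alternatives. Fitted on its own libraries, the OE change in hypoxia did so too (-0.57, adjusted p = 0.0312, range 1.83e-10 to 0.0312 over 13). Against WT cells in normoxia, EPAS1 was 3.31-fold lower in OE, 2.20-fold lower in VC and 1.73-fold lower in KD cells (adjusted p = 9.23e-16, 4.59e-12 and 3.09e-08). In hypoxia it was 3.25-fold, 1.47-fold and 1.47-fold lower (adjusted p = 1.17e-15, 4.08e-06 and 1.22e-05). OE cells were also below VC cells, 1.5-fold in normoxia and 2.22-fold in hypoxia (adjusted p = 2.14e-06 and 3.89e-12). HIF1A and EPAS1 thus differed from WT in opposite directions in OE cells.

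**Figure D2:**
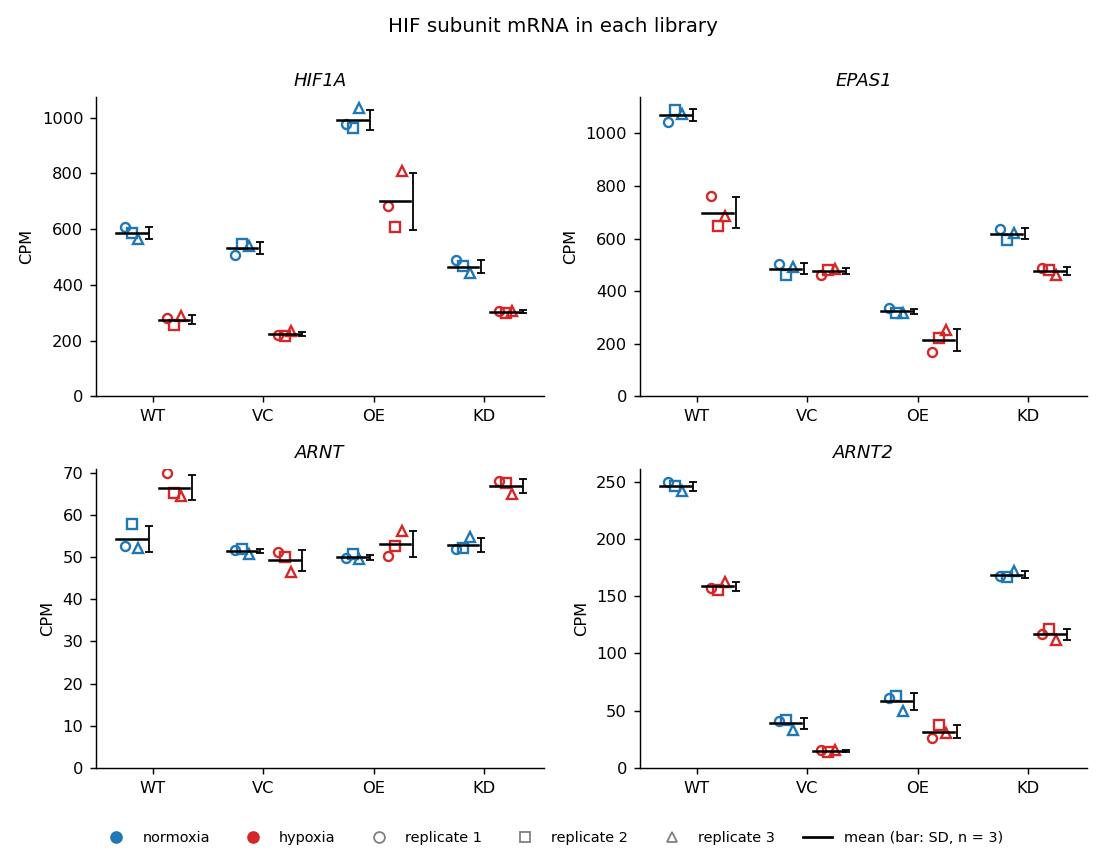
CPM of the α subunits HIF1A and EPAS1 and the β subunits ARNT and ARNT2 in each of 24 libraries, by line and oxygen level, with the mean and SD of 3 libraries per group. OE cells were highest for HIF1A and lowest for EPAS1, and ARNT2 was lowest in VC cells in hypoxia, at 14.25 to 15.44 CPM.

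ARNT (ENSG00000143437), the common β subunit, lies on the minus strand at chr1:150809713-150876708, and its groups differed least in level among the 4 subunits, with a ratio of 1.36 between the highest and the lowest group mean. In WT cells it held 52.67, 57.95 and 52.26 CPM in normoxia and 69.82, 65.09 and 64.45 CPM in hypoxia. KD cells held 51.9, 52.04 and 54.73 CPM in normoxia and 67.94, 67.48 and 64.98 CPM in hypoxia. Hypoxia and normoxia did not overlap in either line. The rise was 1.22-fold in WT (0.29 ± 0.07 SE, adjusted p = 0.00106) and 1.26-fold in KD cells (0.34 ± 0.07 SE, adjusted p = 0.000228). The WT call was lost without WT hypoxia replicate 1 (0.25, adjusted p = 0.0107, the highest of 13 alternatives, which began at 1.46e-06). In VC cells ARNT held 50.83 to 51.84 CPM in normoxia and 46.53 to 51.17 CPM in hypoxia, and in OE cells 49.62 to 50.64 and 50.3 to 56.28 CPM, and neither passed the test (adjusted p = 0.561 and 0.421). In hypoxia ARNT was 1.35-fold lower in VC than in WT cells (-0.43 ± 0.07 SE, adjusted p = 2.56e-06) and 1.25-fold lower in OE than in WT cells (-0.32 ± 0.07 SE, adjusted p = 0.000258). The OE difference missed the threshold when only those 6 libraries were fitted (-0.33, adjusted p = 0.0206, range 3.15e-06 to 0.0206 over 13). The tests of a different response from WT gave -0.35 ± 0.10 (SE, adjusted p = 0.0106) for VC and -0.20 ± 0.10 (SE, adjusted p = 0.209) for OE cells.

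ARNT2 (ENSG00000172379), a β subunit best known from the nervous system, lies on the plus strand at chr15:80404350-80597933 and had group means that differed up to 16.4-fold. WT cells held 249.5, 245.8 and 241.8 CPM in normoxia and 157.3, 155.6 and 162.5 CPM in hypoxia. VC cells held 41.42, 41.86 and 33.45 CPM in normoxia and 15.29, 14.25 and 15.44 CPM in hypoxia. OE cells held 61.45, 63.27 and 49.9 CPM in normoxia and 26.6, 37.79 and 30.91 CPM in hypoxia. All VC and OE libraries lay below all WT and KD libraries. KD cells held 167.4, 167.0 and 171.9 CPM in normoxia and 116.8, 121.5 and 111.3 CPM in hypoxia. In every line the hypoxic libraries lay below the normoxic ones.

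The fall of ARNT2 in hypoxia was 1.55-fold in WT (adjusted p = 2.04e-06), 2.6-fold in VC (adjusted p = 1.48e-11), 1.83-fold in OE (adjusted p = 1.03e-07) and 1.45-fold in KD cells (adjusted p = 3.62e-05). It was steeper in VC than in WT cells by -0.75 ± 0.14 on the log2 scale (SE, adjusted p = 0.000303), while OE and WT cells gave a difference of -0.24 with a 95% interval of -0.51 to 0.04. Fitted on the OE libraries alone, the OE change missed the threshold (-0.85, adjusted p = 0.01, the highest of 13 alternatives, which began at 3.42e-18). Without OE hypoxia replicate 1 the OE change was -0.75, and the difference of OE from VC cells, 0.51 (adjusted p = 0.0218) in all libraries, became 0.60 (adjusted p = 0.000227, the lowest of 19 alternatives, which reached 0.102). Against WT cells, ARNT2 was 4.22-fold lower in OE, 6.31-fold lower in VC and 1.46-fold lower in KD cells in normoxia (adjusted p = 4.19e-17, 1.04e-19 and 2.77e-05). In hypoxia the differences were 4.96-fold, 10.6-fold and 1.36-fold (adjusted p = 6.59e-18, 1.45e-21 and 0.000413). OE cells held more ARNT2 than VC cells, 1.5-fold in normoxia and 2.13-fold in hypoxia (adjusted p = 1.03e-05 and 5.56e-10).

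To set the subunits beside each other, levels were divided by the length of the canonical transcript (CPM per kb), a description that assumes this transcript and is given without a test. In WT cells HIF1A made up 40.7% to 43.2% of the summed HIF1A and EPAS1 level per kb in normoxia and 32.5% to 35.5% in hypoxia. In VC cells its share was 56.7% to 60.8% in normoxia and 37.0% to 38.6% in hypoxia. OE cells stood apart, with 79.3% to 80.9% in normoxia and 78.2% to 84.0% in hypoxia. KD cells held 48.1% to 50.6% and 44.9% to 46.5%. EPAS1 was thus the larger α subunit transcript in WT cells and HIF1A in OE cells, at both oxygen levels. The sum of both α subunits varied less than either, from 149 CPM per kb in VC hypoxia to 356 in WT normoxia, with 314 in OE normoxia.

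Among the β subunits per kb, ARNT2 was the larger in WT and KD cells and ARNT in VC and OE cells. ARNT2 made up 75.4% to 77.4% of the summed β level in WT normoxia, 69.4% to 70.0% in KD, 42.1% to 47.4% in OE and 32.2% to 36.8% in VC normoxia. In hypoxia the shares were 61.9% to 64.5%, 55.3% to 56.5%, 27.6% to 34.2% and 17.1% to 19.3%, below normoxia in every library of the same line. The α subunits together exceeded the β subunits in all libraries, by a mean ratio of 7.23 in WT, 13.6 in VC, 16.2 in OE and 6.42 in KD normoxia. The ratio was 5.35, 11.7, 13.6 and 5.3 in hypoxia.

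**Figure D3:**
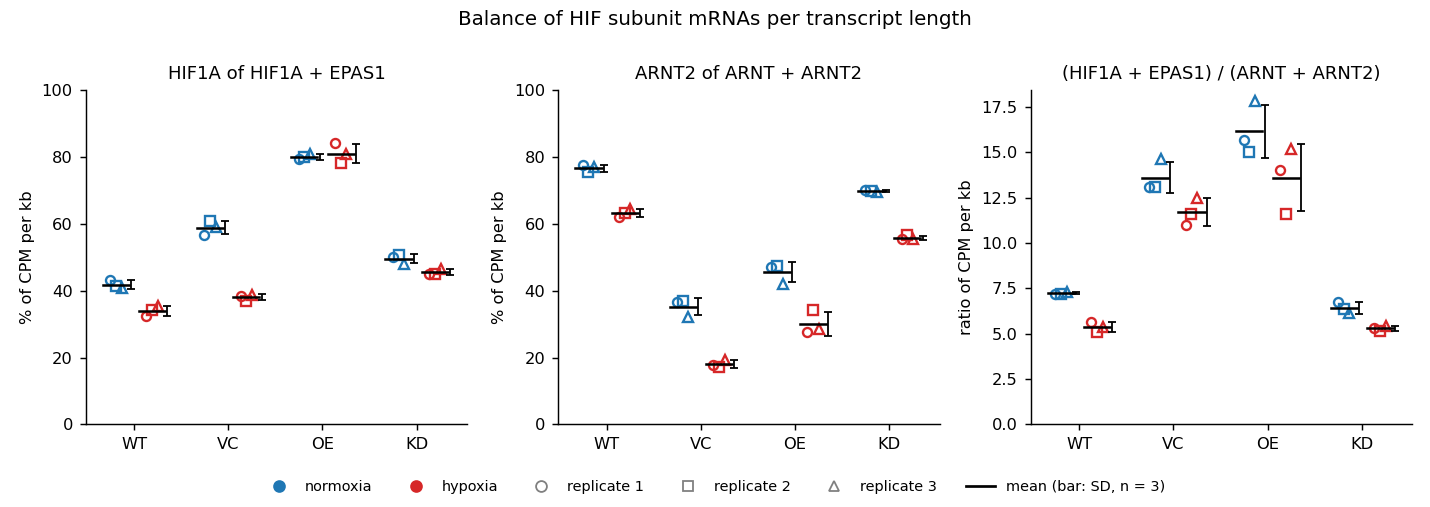
Balance of HIF subunit transcripts in each library, from CPM per kb of the canonical transcript: the share of HIF1A among the α subunits, the share of ARNT2 among the β subunits, and the ratio of α to β, with the mean and SD of 3 libraries. HIF1A made up 78.2% to 84.0% of the α subunits in OE cells and 32.5% to 43.2% in WT cells.

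EGLN1 (ENSG00000135766) encodes the main prolyl hydroxylase that acts on HIF1α in normoxia and lies on the minus strand at chr1:231363751-231422287. In WT cells it held 32.86, 36.5 and 24.45 CPM in normoxia and 76.77, 69.35 and 48.35 CPM in hypoxia. KD cells held 39.02, 43.48 and 26.6 CPM in normoxia and 83.58, 82.93 and 48.78 CPM in hypoxia. In both lines the hypoxic libraries lay above the normoxic ones. VC cells held 54.76, 51.39 and 35.16 CPM in normoxia and 91.89, 83.59 and 48.58 CPM in hypoxia, and OE cells 43.12, 44.74 and 30.46 CPM and 33.78, 78.43 and 46.06 CPM, with overlap in both lines. Replicate 3 was the lowest library in 7 of 8 groups, the exception being OE hypoxia, where replicate 1 was lowest. No EGLN1 change or difference between lines passed the test in the edgeR fit reported, which filtered low counts. The log2 fold changes in hypoxia were 1.05 ± 0.33 (SE, adjusted p = 0.0257) in WT, 0.67 ± 0.33 (adjusted p = 0.156) in VC, 0.43 ± 0.33 (adjusted p = 0.425) in OE and 0.98 ± 0.33 (adjusted p = 0.0375) in KD cells. DESeq2 called the WT and KD changes (adjusted p = 0.00224 and 0.00592), as did a fit with the replicate number as a block (adjusted p = 0.000441 and 0.000885). Over 13 alternatives, the adjusted p lay between 6.57e-27 and 0.0976 in WT and between 1.81e-22 and 0.148 in KD cells, the lowest in each with no filter on low counts. The edgeR fit with no filter also called the VC change (adjusted p = 6.56e-12). Between lines it called OE and VC against WT in normoxia (adjusted p = 0.00749 and 1.34e-08). In hypoxia it called OE against WT and against VC cells (adjusted p = 0.00563 and 4.77e-07). No other alternative called the VC change or these differences. Without OE hypoxia replicate 1 the OE change was 0.66 (adjusted p = 0.196), within 4.89e-05 to 0.972 over 13 alternatives. Of the EGLN1 canonical transcript, 69.3% also lies in exons of AL445524.2 on the same strand, which held 0 or 1 count in every library. How reads in shared exons were counted is not stated, so the EGLN1 level is uncertain.

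EGLN2 (ENSG00000269858), the prolyl hydroxylase known as the one not induced by hypoxia, lies on the plus strand at chr19:40798996-40808434. It was listed at 2.808 to 9.065 CPM, and hypoxia and normoxia did not differ by the test in any line (log2 fold changes of -0.24, 0.11, -0.17 and 0.37 in WT, VC, OE and KD cells). It was higher in VC than in OE cells, where it held 6.829, 7.47 and 8.461 CPM against 3.915, 5.075 and 4.252 CPM in normoxia (1.71-fold, adjusted p = 0.000334). In hypoxia it held 6.777, 8.745 and 9.065 CPM in VC, against 2.808, 4.789 and 4.072 CPM in OE cells (2.07-fold, adjusted p = 6.27e-06) and 4.234, 4.84 and 5.292 CPM in WT cells (1.71-fold, adjusted p = 0.000253). The groups of each of these pairs did not overlap. The difference of OE from VC cells was -0.90 and called without OE hypoxia replicate 1. Exons of the read-through gene RAB4B-EGLN2 cover 95.8% of the EGLN2 canonical transcript, and RAB4B-EGLN2 had 0 counts in all libraries. The EGLN2 level is thus uncertain.

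EGLN3 (ENSG00000129521), a hydroxylase known for its strong induction by HIF, lies on the minus strand at chr14:33924227-34462774 and set the lines apart more than any other member. VC cells held 24.7, 25.02 and 29.08 CPM in normoxia and 174.3, 180.5 and 158.4 CPM in hypoxia. WT cells held 0.713, 0.915 and 0.645 CPM in normoxia, from 9 to 18 counts, and 2.464, 2.038 and 2.247 CPM in hypoxia, from 31 to 39 counts. OE cells held 1.243, 1.158 and 1.533 CPM in normoxia and 1.735, 1.81 and 1.068 CPM in hypoxia, which overlapped. KD cells held 0 to 5 counts in each library, or 0 to 0.318 CPM in normoxia and 0 to 0.42 CPM in hypoxia, at or near the limit of detection.

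EGLN3 rose in hypoxia 6.52-fold in VC (2.70 ± 0.13 SE, adjusted p = 5.79e-15) and 2.90-fold in WT cells (1.54 ± 0.30 SE, adjusted p = 0.000198). In OE cells the change was 0.24 ± 0.30 (SE, adjusted p = 0.638), which differed from VC cells by -2.46 ± 0.33 (SE, adjusted p = 8.89e-06). Its difference from WT cells was -1.30 ± 0.43 (SE, adjusted p = 0.0528). These were 0.18, -2.56 and -1.37 without OE hypoxia replicate 1, and the difference from VC cells was the one called. In all libraries, DESeq2 and a fit with no filter called the difference of OE from WT cells (adjusted p = 0.00658 and 0.0068). Its adjusted p reached 0.138 over 19 alternatives. In VC cells EGLN3 was 33.7-fold above WT in normoxia (5.08 ± 0.21 SE, adjusted p = 2.05e-17) and 75.8-fold above in hypoxia (6.24 ± 0.18 SE, adjusted p = 3.01e-21). It was 20.1-fold and 111-fold lower in OE than in VC cells (adjusted p = 1.39e-16 and 1.59e-21), and OE and WT cells did not pass the test at either oxygen level (adjusted p = 0.107 and 0.122). In KD cells it was lower than in WT cells in normoxia (adjusted p = 0.000678) and in hypoxia (adjusted p = 2.65e-07), with summed counts of 6 against 40 and 8 against 102. The normoxia call was lost without KD normoxia replicate 2 (-2.20, adjusted p = 0.0118, the highest of 13 alternatives, which began at 3.65e-06).

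**Figure D4:**
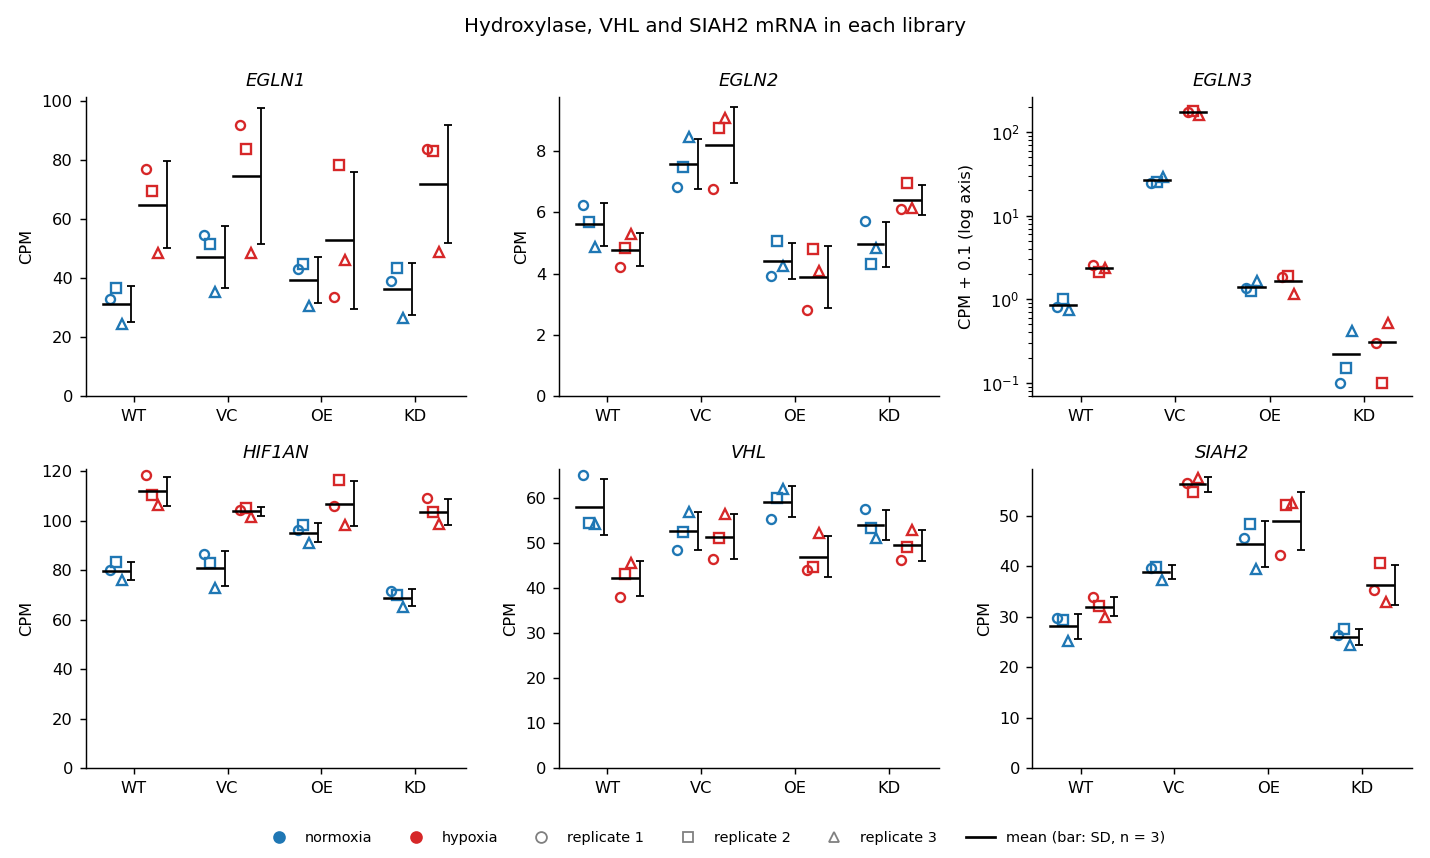
CPM of the hydroxylases EGLN1, EGLN2, EGLN3 and HIF1AN, of VHL and of SIAH2 in each of 24 libraries, by line and oxygen level, with the mean and, on linear axes, the SD of 3 libraries. EGLN3 is on a log axis after adding 0.1 CPM and reached 158.4 to 180.5 CPM in VC cells in hypoxia, while EGLN1 was low in replicate 3 of nearly every group.

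HIF1AN (ENSG00000166135), the asparaginyl hydroxylase, lies on the plus strand at chr10:100529072-100559998. WT cells held 80.27, 83.17 and 76.06 CPM in normoxia and 118.5, 110.6 and 106.6 CPM in hypoxia. KD cells held 71.57, 70.1 and 65.02 CPM in normoxia and 109.1, 103.5 and 98.57 CPM in hypoxia. VC cells held 86.61, 82.98 and 73.04 CPM in normoxia and 104.5, 105.3 and 101.6 CPM in hypoxia. None of these 3 lines overlapped between oxygen levels. HIF1AN rose 1.4-fold in WT (adjusted p = 5.55e-06), 1.28-fold in VC (adjusted p = 0.000354) and 1.51-fold in KD cells (adjusted p = 3.19e-07). OE cells held 96.31, 98.52 and 91.02 CPM in normoxia and 106.2, 116.5 and 98.2 CPM in hypoxia, and their change of 0.17 (95% interval 0.01 to 0.32) did not pass the test (adjusted p = 0.113). The test of a different response in OE and WT cells gave -0.32 ± 0.11 (SE, adjusted p = 0.0513). Between lines, HIF1AN was not called in the edgeR fit of all libraries, with 2 differences just outside the threshold in normoxia. OE and WT cells differed by 0.25 ± 0.07 (SE, adjusted p = 0.0101), and OE and VC cells by 0.24 ± 0.07 (SE, adjusted p = 0.0111). Each was called in 6 of 13 alternatives, by DESeq2 among them (adjusted p = 0.000602 and 0.00468), over ranges of 0.000496 to 0.0576 and 0.00216 to 0.0839. Replicate 3 was the lowest HIF1AN library in 8 of 8 groups.

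VHL (ENSG00000134086), which encodes the recognition subunit of the ubiquitin ligase for hydroxylated HIFα, lies on the plus strand at chr3:10141778-10153667 with 3 exons in its canonical transcript. WT cells held 65.07, 54.4 and 54.2 CPM in normoxia and 37.85, 43.05 and 45.45 CPM in hypoxia, with no overlap. The fall was 1.38-fold (-0.46 ± 0.09 SE, adjusted p = 0.000289). OE cells held 55.24, 59.85 and 61.96 CPM in normoxia and 43.94, 44.56 and 52.21 CPM in hypoxia, also with no overlap, and their change of -0.33 ± 0.09 (SE) stood just outside the threshold (adjusted p = 0.0108). Without OE hypoxia replicate 1 it was -0.28 (adjusted p = 0.0324), within 0.00281 to 0.0859 over 13 alternatives. VC cells held 48.38 to 56.78 CPM in normoxia and 46.44 to 56.44 CPM in hypoxia, and KD cells 50.92 to 57.45 and 46.13 to 52.89 CPM, with overlap in both. Their changes were -0.03 (95% interval -0.23 to 0.16) and -0.13 (-0.32 to 0.07).

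In the edgeR fit of all libraries, VHL was not called between lines at either oxygen level. In normoxia the 95% intervals were -0.16 to 0.22 for OE against WT, -0.30 to 0.09 for KD against WT and -0.33 to 0.05 for VC against WT cells. In hypoxia they were -0.04 to 0.35, 0.03 to 0.42 and 0.09 to 0.48, and the last, VC against WT, had an adjusted p of 0.0139. That difference was called in 6 of 13 alternatives, by DESeq2 among them (0.31, adjusted p = 0.00473), over a range of 0.00473 to 0.137. Exons of AC034193.1 on the opposite strand cover 26.6% of the VHL canonical transcript. AC034193.1 held 10.5 CPM in OE hypoxia replicate 1 and at most 0.859 CPM in the other libraries. HIF1A-AS1, opposite to the start of HIF1A, also stood out in that library, at 7.68 CPM against 1.59 CPM or less elsewhere. The OE changes of VHL and HIF1A are given with and without this library above.

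SIAH2 (ENSG00000181788) lies on the minus strand at chr3:150741125-150763477 and was highest in VC and OE cells. VC cells held 39.63, 39.86 and 37.28 CPM in normoxia and 56.64, 54.74 and 57.58 CPM in hypoxia. KD cells held 26.38, 27.5 and 24.32 CPM in normoxia and 35.28, 40.73 and 33.0 CPM in hypoxia. Neither line overlapped between oxygen levels. The rise was 1.45-fold in VC (0.53 ± 0.09 SE, adjusted p = 3.99e-05) and 1.4-fold in KD cells (0.48 ± 0.10 SE, adjusted p = 0.000268). WT cells held 29.79, 29.43 and 25.31 CPM in normoxia and 33.93, 32.22 and 30.01 CPM in hypoxia, which did not overlap, and their change of 0.18 ± 0.10 (SE, adjusted p = 0.181) did not pass the test. OE cells held 45.61, 48.38 and 39.45 CPM in normoxia and 42.29, 52.15 and 52.54 CPM in hypoxia, which overlapped. SIAH2 was 1.58-fold higher in OE than in WT cells in normoxia and 1.53-fold higher in hypoxia (adjusted p = 2e-06 and 4.39e-06). VC cells exceeded WT cells 1.38-fold and 1.76-fold (adjusted p = 0.000163 and 1.46e-08). OE and VC cells did not pass the test at either level (adjusted p = 0.104 and 0.0808). In hypoxia the difference of OE from WT cells was 0.68 and called without OE hypoxia replicate 1.

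The partners of VHL in its ligase were 6 genes, all tested. In hypoxia 3 were lower in WT, 1 in OE and 2 in KD cells, and 0 were higher in any line. In VC cells 0 were lower. At an unadjusted p below 0.05, 1 was higher in WT and 2 were lower in VC cells, and DESeq2 called the first and 0 in VC cells. In WT cells these were CUL2, the scaffold of the ligase (-0.38), ELOC, an adaptor (-0.39), and UBE2M, which conjugates NEDD8 to cullins (-0.39), alongside the fall of VHL itself. ELOB, the other adaptor, was lower in OE than in WT cells, by -0.52 in normoxia and -0.85 in hypoxia, and lower in VC than in WT cells by -0.48 and -0.78. Among 19 cofactors and turnover factors of HIF, 18 were tested and HIF3A, with 9 counts in 24 libraries, was not. In hypoxia 3, 5, 3 and 4 were higher and 1, 0, 1 and 1 lower in WT, VC, OE and KD cells. The called shares of all genes in these lines were 21.1%, 21.0%, 13.9% and 19.1%. Neither this list nor the ligase partners were tested against those shares. HSP90AA1 and HSP90AB1, chaperones that hold HIF1α outside the VHL route, led in every line, with log2 fold changes of 1.66 and 1.04 in WT and 1.96 and 0.86 in OE cells. CREBBP, the coactivator whose binding HIF1AN blocks, rose by 0.66 in WT and 0.59 in KD cells, and EP300, its paralog, by 0.67 in VC cells.

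Of 14 relatives of HIF in the bHLH-PAS family, 13 were tested. In hypoxia 3, 5, 3 and 2 were higher and 1, 2, 0 and 2 lower in WT, VC, OE and KD cells. Hypoxia called 21.1%, 21.0%, 13.9% and 19.1% of all genes in these lines, and this list was not tested against those shares. NPAS2, a circadian partner of the family, rose by 0.69 in WT, 1.25 in VC and 1.22 in KD cells, and AHR, which shares ARNT as a partner, fell by 0.84 in WT and 0.81 in KD cells. Of 23 other oxygen-dependent dioxygenases, 13 were higher and 3 lower in WT cells, 14 and 2 in VC, 10 and 3 in OE and 13 and 3 in KD cells, beside the same shares of all genes. Their median log2 fold changes were 0.57, 0.64, 0.25 and 0.39. P4HA1 and P4HA2, subunits of the collagen prolyl hydroxylase, rose in all 4 lines, P4HA1 by 2.23 in WT and 1.35 in OE cells. RIOX1, a ribosomal oxygenase, fell by 1.76 in WT and 1.48 in KD cells.

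Of 22 target genes of HIF, 20 were higher and 0 lower in hypoxia in WT cells, 21 and 1 in VC, 17 and 1 in OE and 20 and 1 in KD cells. The called shares of all genes were 21.1%, 21.0%, 13.9% and 19.1%. Their median log2 fold change was 1.84 in WT, 1.25 in VC, 0.48 in OE and 1.53 in KD cells. NDRG1, a stress-induced gene, led in every line and rose by 4.86 in WT, 4.25 in VC, 2.52 in OE and 3.51 in KD cells. In the test of a different response, 0 of the 22 were higher and 20 lower in OE than in WT cells, 1 and 16 in OE than in VC cells, 0 and 15 in VC than in WT cells and 1 and 5 in KD than in WT cells. These tests called 6.18%, 5.13%, 8.02% and 0.985% of all genes. OE cells thus had the highest HIF1A level at both oxygen levels and the lowest median response of these targets to hypoxia. In normoxia, 16 of the 22 were higher and 2 lower in OE than in WT cells, with a median of 0.51 (19.7% of all genes called). In hypoxia, 1 was higher and 17 were lower, with a median of -0.62 (26.6%). VC against WT cells gave 12 higher and 9 lower in normoxia (median 0.4, 35.8%) and 7 and 12 in hypoxia (median -0.43, 39.9%). For KD against WT cells these were 12 and 5 (median 0.42, 16.3%) and 6 and 6 (median 0.02, 18.2%). OE against VC cells gave 12 and 5 (median 0.35, 33.5%) and 4 and 10 (median -0.2, 38.2%). Without OE hypoxia replicate 1, 19 targets were higher and 1 lower in hypoxia in OE cells (median 0.5), and 0 were higher and 20 lower in the test against the WT response (median -1.15). The count of 0 lower in WT cells was also 0 at an unadjusted p below 0.05 and by DESeq2. So was the count of 0 with a higher response in OE than in WT cells. For the count of 0 with a higher response in VC than in WT cells, both gave 1.

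HIF1A has antisense genes on the opposite strand. Exons of HIF1A-AS3 cover 6.8% and those of HIF1A-AS1 3.4% of the HIF1A canonical transcript. HIF1A-AS3 (ENSG00000258667, chr14:61707298-61751163) held 2.872, 3.259 and 3.173 CPM in VC normoxia and 20.64, 20.27 and 22.17 CPM in VC hypoxia, with 0 counts in all WT and KD libraries and 2 counts in 1 OE library in hypoxia. Against the limit of 3 counts in the group, this was at least 53.6-fold higher than in WT cells in normoxia and at least 318-fold higher in hypoxia. Within VC cells it rose by 2.76 ± 0.23 (SE, adjusted p = 8.55e-09), while HIF1A fell by 1.25. In WT cells, with 0 counts of HIF1A-AS3, the change of HIF1A was -1.09. The HIF1A responses of VC and WT cells differed by -0.16 ± 0.11 (SE, adjusted p = 0.432), which did not pass the edgeR test. A link between HIF1A-AS3 and HIF1A was not tested. HIF1A-AS1 held 0.316 to 1.59 CPM outside OE hypoxia replicate 1. Whether the counting used strand is not stated, so reads of HIF1A and its antisense genes may not have been told apart in the shared exons.

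For HIF1A, EPAS1, EGLN3 and SIAH2, the genes with the most similar pattern of group means were found among 10965 genes with at least 10 CPM in their highest group. The measure was the correlation of log2 means over 8 groups, as a description. It does not weigh the size of the differences between groups. For HIF1A these were TPD52L1 (r = 0.985), ALDH1A3 (r = 0.978), a retinaldehyde dehydrogenase, and GNAI1 (r = 0.975). ALDH1A3 held 336 CPM in WT normoxia, 157 in WT hypoxia, 932 in OE normoxia and 451 in OE hypoxia. For EPAS1 they were DGAT2 (r = 0.96), an enzyme of triglyceride synthesis, PTX3 (r = 0.959), a secreted pentraxin, and DOK1 (r = 0.956). The means of PTX3 were 239 CPM in WT normoxia and 61.0 CPM in WT hypoxia, and 26.7 and 8.23 CPM in OE cells. Those of DOK1 lay between 22.6 CPM in WT normoxia and 17.7 CPM in OE hypoxia, a far narrower range than that of EPAS1. For EGLN3 they were ITGB4 (r = 0.988), an integrin, KDELR2 (r = 0.988) and ACTR3C (r = 0.985), all highest in VC hypoxia. For SIAH2 they were PARD6B (r = 0.984), a cell polarity gene, HKDC1 (r = 0.971), a hexokinase, and RNF44 (r = 0.97).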

How the data were processed

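RNA-seq gene counts of 24 libraries were used as deposited by the authors. Per the file headers and the submitters' processing notes, reads were demultiplexed with bcl2fastq 2.17, aligned with STAR to GRCh38 and counted per gene of Ensembl 98. The strand setting and the treatment of reads in shared exons are not given in the sources used here. The deposited alignment summaries gave the uniquely mapped read counts. The 10 members and all gene lists were chosen with earlier results of these data known. The groups followed the labels. Nothing in the labels says that replicates were separate cultures, so the p-values speak of spread among libraries within groups, part of which may be technical. In the fit of all 24 libraries this spread was shared over the 8 groups. Its p-values thus do not measure the spread among the 3 libraries of a compared group alone.

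The filter kept 24873 genes whose counts summed to 10 or more, and TMM-scaled CPM was computed. A single edgeR model (version 4.0.16 in R 4.3.3, robust quasi-likelihood) of 8 groups was tested in 16 comparisons, with Benjamini-Hochberg adjustment over all genes and a threshold of 0.01. A change is the fitted log2 fold change, and a difference of responses is an interaction term. The script was tested on simulated data. Alternatives were size factors by RLE, filterByExpr, no filter, a replicate block, a threshold of 0.05, the compared libraries only, DESeq2 1.42.0, and leaving out each library of a comparison. From each list, up to 3 called genes with the largest change and at least 10 CPM were named per comparison. For likeness, 0.1 CPM was added before log2. Intervals and limits for counts of 0 cover counting error only, at 3 counts. Gene positions are from GENCODE on GRCh38, and promoters from RefSeq on GRCh38.p14.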

Additional observations from a re-analysis of the deposited data

Results flagged for a closer look

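The response of a member to hypoxia differed between lines, by a test of the difference itself, in 6 results. For HIF1A the response in OE cells was 0.58 (log2) above that in WT cells and 0.75 above that in VC cells, with both responses being falls. For EPAS1 the response in VC cells was 0.59 above that in WT cells, and that in OE cells differed from VC cells by -0.56. For ARNT2 the response in VC cells differed from WT cells by -0.75, a steeper fall. For EGLN3 the response in OE cells differed from that in VC cells by -2.46. The comparisons share the WT or VC libraries.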

How the results depend on the processing

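Of 160 tests of members, 64 were called, of which 54 were called in every alternative and 10 lost the call in at least 1. None of the called values reversed. Of 32 counts of members by direction, 22 stayed within 1.5 times throughout. The number of calls was 68 with RLE factors, 68 with filterByExpr, 77 with no filter, 77 at a threshold of 0.05, 63 with the compared libraries only and 74 with DESeq2.

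In OE cells in hypoxia, no filter gave 1 member higher (0 in the fit reported) and the compared libraries only gave 0 lower (3). For the response of OE minus WT, the compared libraries only gave 0 higher (1), and no filter and DESeq2 gave 2 and 1 lower (0). For KD minus WT, the block, a threshold of 0.05, the compared libraries only and DESeq2 each gave 1 higher (0). For VC minus WT, no filter, the compared libraries only and DESeq2 gave 2 higher and a threshold of 0.05 gave 3 (1), while RLE, filterByExpr, 0.05, the compared libraries only and DESeq2 gave 2 lower (1). For OE minus VC, RLE, filterByExpr, no filter, 0.05 and DESeq2 gave 2 higher (1), and the compared libraries only gave 1 lower (2). Leaving out 1 library gave 2 to 4 members lower in KD than WT normoxia, 1 to 2 lower in VC minus WT, and 1 to 2 higher and 1 to 2 lower in OE minus VC.

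Over all genes, hypoxia in OE cells called 3449, against 762 with the compared libraries only and 5571 at 0.05. OE against WT in hypoxia called 6626 against 3411, and OE against VC 9502 against 6081, with the compared libraries only. The response of KD minus WT called 245, against 523 by DESeq2, 504 at 0.05, 605 with the compared libraries only, 374 with no filter and 140 to 203 without 1 library. OE minus VC called 1277, against 2246, 707 and 2008 (0.05, compared libraries, no filter). OE minus WT called 1536 against 2549 and 888, and VC minus WT 1996 against 3117 and 3019 (0.05, compared libraries). The cause of these changes was not tested.

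With a replicate block, 71 members' tests were called, with 7 gained and 0 lost, among them EGLN1 in WT (adjusted p = 0.000441) and KD cells (0.000885), against ranges of 6.57e-27 to 0.0976 and 1.81e-22 to 0.148 over 13 alternatives. Deviations from group means correlated between same-numbered libraries by -0.102 to 0.341 (median 0.11, 84 pairs). Between libraries of other numbers they did so by -0.268 to 0.273 (median -0.097). Deviations from a mean of 3 libraries sum to 0, so the medians depend on each other. Of 24 libraries, 12 correlated best with their own number. Replicate 3 was lowest in 8 of 8 groups for HIF1AN, 7 for EGLN1, 6 for ARNT and SIAH2, and 1 to 4 for the other members. How often this holds over all genes was not counted. The labels do not say what a set shared, so the fit without the block is the one reported. Any part shared within a set stays in the spread of that fit. At 0 to 5 counts a library, EGLN3 in KD cells was at the limit of depth.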
